A study of Mus musculus with 6 samples.

Results

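The replication-dependent histone genes were taken as every gene counted under a symbol that begins with Hist1h, Hist2h, Hist3h or Hist4h, the names of the mouse histone gene clusters. The rule found 63 genes among the 32531 listed for each library. It goes by symbol alone and does not show that each gene is replication-dependent. They comprise 6 genes for the linker histone H1 and 16, 18, 10 and 13 for the core histones H2A, H2B, H3 and H4. By cluster, 51 belong to Hist1 on chromosome 13, 8 to Hist2 on chromosome 3, 3 to Hist3 on chromosome 11 and 1 to Hist4 on chromosome 6.

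Most of the histone protein that packages new DNA is encoded by these genes, which are known for strong activity during S phase. Their mRNAs typically lack introns and a poly(A) tail and end in a short stem-loop, which the stem-loop binding protein SLBP holds through processing, translation and decay. Cells that have left the cell cycle, as most neurons have, draw more on the replication-independent variants such as H3.3, and some of the clustered genes are known to give polyadenylated transcripts there.

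The libraries came from translating ribosome affinity purification (TRAP), in which ribosomes that carry a fluorescently tagged Rpl10a protein are pulled down with their mRNA. The immunopurified (IP) group held 3 libraries of hypothalamic RNA from adult, untreated control mice of the line Lhx5-TRAP DT154, which carries EGFP-Rpl10a under control of Lhx5 sequences. The unbound group held 3 libraries from the hypothalamus of the same line, with the same transgene, age and lack of treatment. The sample type label calls them unbound and the titles call them input, and they are called unbound here. The sources used here give neither the animals' sex nor any pooling, and do not say that replicates came from separate animals, so p-values measure the spread between these libraries. In bulk RNA of this kind, fewer cells of a type and less RNA per cell cannot be told apart. The ratio of IP to unbound also mixes both with how much of an mRNA is held on tagged ribosomes. Genes said to rise or fall are higher or lower in IP than in unbound libraries.

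The label of these genes was checked against the stem-loop, which their symbols say nothing about. In GENCODE M21 on GRCm38 (mm10), a 16-base histone stem-loop motif lay in an annotated transcript of 42 of the 63 genes, against 12 of the 21889 other protein-coding genes (0.0548%). The 42 genes carried 8 forms of it, of which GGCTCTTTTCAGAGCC was found in 22 genes of the H1, H2A, H2B and H3 types and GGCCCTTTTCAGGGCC in 7 genes, all of them H4. The stem-loops of genes that the results turn on are given below, read 5′ to 3′ on the transcript from GENCODE M21, with the motif in capitals and 5 flanking bases on each side.
Hist1h4d: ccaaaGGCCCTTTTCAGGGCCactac
Hist2h4: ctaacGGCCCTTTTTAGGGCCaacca
Hist4h4: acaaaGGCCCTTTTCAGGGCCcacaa
Hist1h1e: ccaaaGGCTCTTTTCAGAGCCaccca
Hist3h2ba: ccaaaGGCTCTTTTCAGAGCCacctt
Hist2h2ac: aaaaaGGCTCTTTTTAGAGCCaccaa
Hist1h3e: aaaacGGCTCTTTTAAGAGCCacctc
No such motif was found in the annotated transcripts of Hist1h2bc, Hist2h2be and Hist1h4k, which says only that these letters are not in those transcripts as annotated. The annotated transcript runs on past the stem-loop by 770 bases in Hist1h4d, 1153 in Hist1h1e, 1257 in Hist2h4 and 2445 in Hist4h4, and by 169 in Hist3h2ba.

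Gene counts came to 32471045 to 46293837 reads in the IP libraries and 32926146 to 40768577 in the unbound libraries. The gene that names the line was checked first: Lhx5 had 56.7, 58.1 and 70.5 CPM (counts scaled to a common library size) in IP libraries against 2.03, 1.86 and 6.28 in unbound libraries (18.1-fold higher in IP, edgeR adjusted p = 0.000816). Reads that aligned to more than one place, which are not assigned to genes, made up 44.5% ± 0.671 of all reads in IP and 32.5% ± 0.624 in unbound libraries (SD, n = 3 each). Reads ambiguous between overlapping genes made up 1.61% ± 0.0292 in IP and 8.31% ± 1.07 in unbound libraries. Unbound replicate 3 stood apart from its group, with 30.6 CPM of the choroid plexus gene Ttr against 1960 and 2160 CPM in unbound replicates 1 and 2. For Ppp1r1b it had 19.5 CPM against 567 and 487 CPM. IP replicate 3 was also the lowest of its group for both genes. Ttr had 115, 221 and 45.3 CPM and Ppp1r1b 44.4, 61.1 and 20.3 CPM in IP replicates 1 to 3. Of 3 hypothalamic genes looked at, Pomc ranged from 2.44 to 3.66 CPM over the IP and from 2.69 to 6.04 CPM over the unbound libraries, Agrp from 0.404 to 0.61 CPM over the IP and from 0.456 to 0.802 CPM over the unbound libraries, and Hdc from 0.38 to 1.42 CPM over the IP and from 2.15 to 4.86 CPM over the unbound libraries.

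Of the 63 histone genes, 60 had at least 1 read in some library, 46 had reads in all of them, and each library held reads of 51 to 55. Hist1h2ao, Hist1h2br and Hist3h2a had 0 reads in every library. The filter on low counts kept 38 genes for the test. The other 25 reached at most 0.831 CPM, or 35 reads, in any library, and 22 of them had reads. The members known from the germ line, Hist1h1t, Hist1h2aa and Hist1h2ba, were among these, with a summed level of at most 0.0238 CPM in IP and 0.226 CPM in unbound libraries.

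Together the 63 genes made up 0.0312% ± 0.00318 of the gene counts in IP and 0.0172% ± 0.00192 in unbound libraries. Their summed level, in CPM scaled by trimmed mean of M values (TMM), was 359, 310 and 297 in IP libraries 1 to 3 and 185, 165 and 150 in unbound libraries 1 to 3. The lowest IP library lay above the highest unbound one, and the means of 322 ± 32.5 and 167 ± 17.7 CPM differed 1.93-fold (SD, n = 3 each). A single H4 gene, Hist1h4d, supplied 47.2 to 50.3% of the members' reads in IP and 28.7 to 43.1% in unbound libraries. Without it the sums were 164 ± 14.6 CPM in IP and 103 ± 7.91 CPM in unbound libraries, a 1.59-fold difference.

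Tested gene by gene with edgeR's quasi-likelihood test and Benjamini-Hochberg adjustment over 16991 genes, at an adjusted p under 0.05, 20 of the 38 histone genes rose in IP, 4 fell and 14 did not pass. Over all genes tested, 21.1% rose and 23.2% fell. The median log2 fold change of the 38 genes, IP over unbound, was 1.36, against -0.01 over all genes tested, and 34 of the 38 lay above 0. In 27 genes the IP libraries all lay above the unbound ones, in 3 they all lay below, and in 8 the groups overlapped; over all genes tested, the shares without overlap were 27.1% above and 28.7% below. By type, 3 of 5 tested H1 genes rose, 2 of 5 H2A, 8 of 14 H2B, 1 of 4 H3 and 6 of 10 H4 genes. Of the 4 genes that fell, 3 encode H2B and 1 encodes H4.

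**Figure D1:**
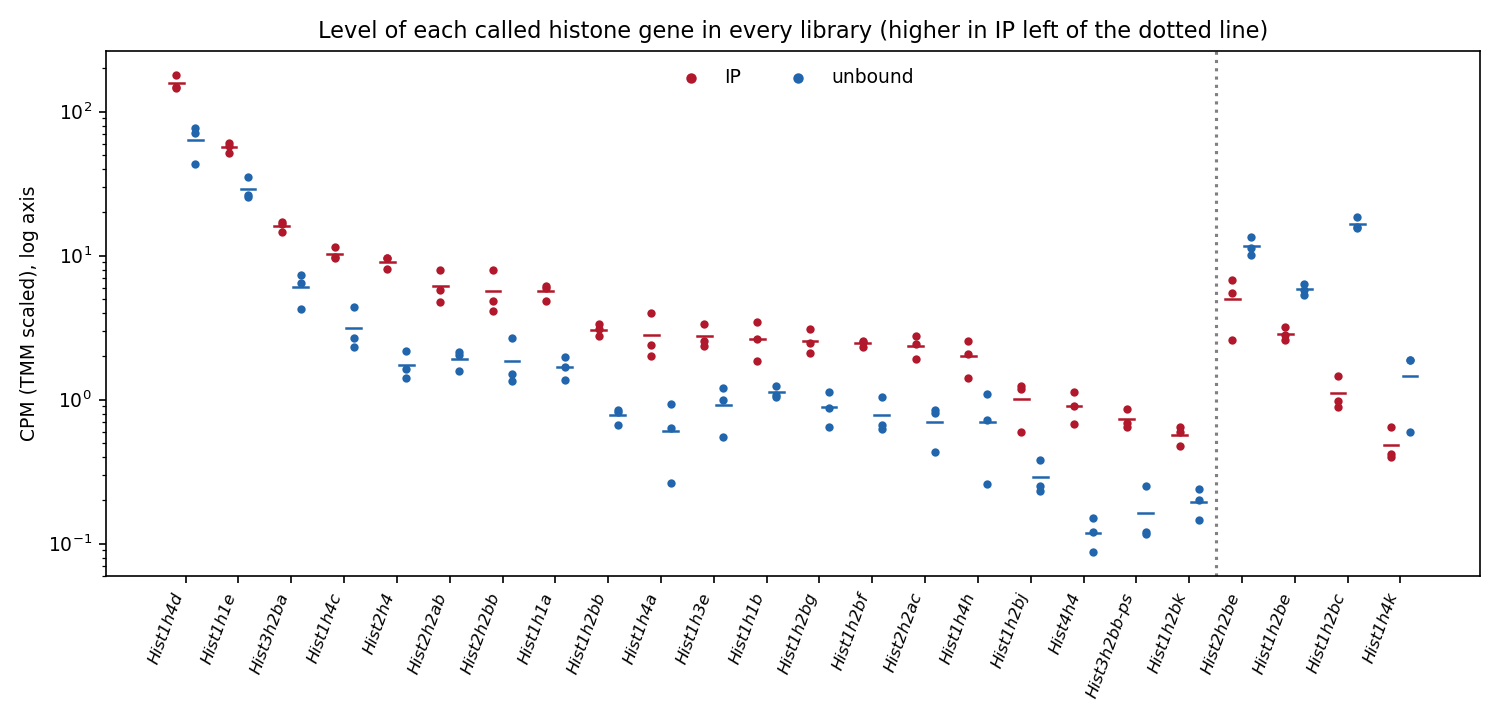
Level of each histone gene that passed the test, in CPM on a log axis, with a dot per library and a line at the mean of each group (IP left and unbound right within each gene; n = 3 each). The 20 genes left of the dotted line were higher in IP, led by Hist1h4d at 146 to 181 CPM, and the 4 right of it were lower in IP.

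By summed level, H4 had the highest mean of the types, with 187 ± 22.7 CPM in IP libraries and 72.8 ± 20.8 CPM in unbound libraries (SD, n = 3 each). It led in each library except unbound replicate 3, where H4 came to 49.5 CPM and H2B to 49.8 CPM. H1 came to 74.3 ± 8.39 CPM in IP against 39.5 ± 4.66 CPM in unbound libraries, H2A to 11.8 ± 2.09 CPM in IP against 4.64 ± 0.226 CPM in unbound libraries, and H3 to 5.81 ± 0.887 CPM in IP against 2.37 ± 0.831 CPM in unbound libraries. In these 4 types the libraries of the groups did not overlap. H2B was the exception: its sum was 43.5, 44.3 and 43.6 CPM in IP libraries and 49.9, 42.4 and 49.8 CPM in unbound libraries, which overlap (0.925-fold). The core histones assemble in equal numbers into nucleosomes, but H3 reads made up far less than H4 reads in every library. These counts do not measure the ratio of H3 to H4. Reads that aligned to several places were left out. The share of unique 50-base windows was at most 53% in an H3 gene (Hist1h3c) and 89.8% in Hist1h4d. The H3.3 genes also lie outside the H3 sum. How RNA was selected is not stated, and a selection for poly(A) would leave out mRNAs that lack the tail. The part of these limits in the difference was not tested.

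**Figure D2:**
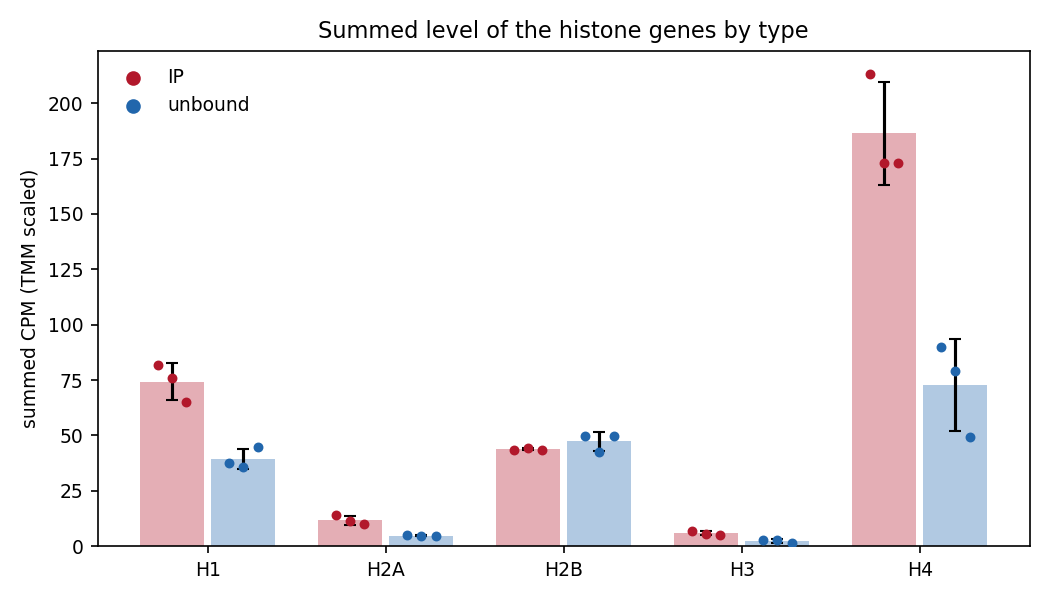
Summed CPM of the histone genes by type, with a bar for the group mean, an error bar of 1 SD and a dot per library (n = 3 each). The IP libraries lie above the unbound ones for H1, H2A, H3 and H4, while for H2B 43.5 to 44.3 CPM in IP stands beside 42.4 to 49.9 CPM in unbound libraries.

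Linker histone H1 sits where DNA enters and leaves the nucleosome, and its gene family here was led by Hist1h1e (chr13:23620629-23622558, minus strand, a single exon). Hist1h1e stood at 61.1, 57.5 and 51.9 CPM in IP libraries and 26.2, 25.4 and 35.1 CPM in unbound libraries. All IP libraries lay above all unbound ones, a 1.97-fold rise (log2 fold change 0.98 ± 0.16 SE, edgeR adjusted p = 0.00184). It supplied 74.7 to 79.5% of the H1 level in IP and 69.4 to 78.4% in unbound libraries. Of its 1930 exon bases in GENCODE M21, 496 are shared with Hist1h2be or the predicted gene Gm11398 on the same strand. Reads there cannot be told apart by that annotation. The annotation used for counting is not stated, so how such reads were counted is not known. Hist1h1a, an H1 gene known for expression in dividing cells, stood at 5.94, 6.14 and 4.87 CPM in IP and 1.98, 1.37 and 1.68 CPM in unbound libraries, a 3.36-fold rise (edgeR adjusted p = 0.00141). Hist1h1b also rose, with 3.47, 2.63 and 1.87 CPM in IP and 1.08, 1.05 and 1.25 CPM in unbound libraries (2.36-fold, edgeR adjusted p = 0.0236). That call was lost without IP replicate 1 (log2 fold change 1.01, adjusted p = 0.0883), without IP replicate 2 (1.26, 0.0549), and without unbound replicate 1 (1.25, 0.0609) or 2 (1.2, 0.0729). It was also lost with neuron marker scaling (adjusted p = 0.138), in lane 2 alone (0.145) and with the length trend removed (0.112). With the GC trend removed and replicate number as a block the adjusted p was 0.057. Hist1h1c, an H1 subtype known to be abundant in non-dividing cells, did not pass, with 8.55, 5.85 and 4.42 CPM in IP and 6.26, 6.19 and 5.61 CPM in unbound libraries (log2 fold change 0.06 ± 0.27, edgeR adjusted p = 0.873). Its groups overlap. Hist1h1d had 2.24 to 3.57 CPM in IP and 1.03 to 2.18 CPM in unbound libraries (log2 fold change 0.77 ± 0.38, edgeR adjusted p = 0.135).

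H2A pairs with H2B in the nucleosome, and 16 H2A genes were listed but only 5 passed the filter on low counts. The Hist2 cluster held the 2 that rose. Hist2h2ab stood at 7.96, 5.78 and 4.78 CPM in IP and 2.13, 1.57 and 2.04 CPM in unbound libraries (3.22-fold, edgeR adjusted p = 0.00217). Hist2h2ac stood at 2.76, 1.93 and 2.44 CPM in IP and 0.852, 0.814 and 0.432 CPM in unbound libraries (3.40-fold, edgeR adjusted p = 0.0088). In both genes every IP library was above every unbound one. Of the 444 exon bases of Hist2h2ab, 303 are shared with a predicted gene on the opposite strand, and the sources used here do not say whether counting used strand. Hist1h2ak had 1.69, 1.93 and 1.33 CPM in IP and 0.827, 1.10 and 0.504 CPM in unbound libraries without passing (edgeR adjusted p = 0.0902), although its groups do not overlap. Hist1h2ac and Hist1h2ae stayed at or below 0.475 CPM in every library and did not pass.

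The H2B genes split in direction. Hist1h2bc (chr13:23684199-23692908, plus strand) had 0.974, 1.45 and 0.889 CPM in IP libraries and 15.7, 15.6 and 18.7 CPM in unbound libraries. The highest IP library was far below the lowest unbound one, a 15.2-fold fall and the lowest fold change of the 38 genes (log2 fold change -3.93 ± 0.25, edgeR adjusted p = 4.53e-05). Hist2h2be (chr3:96221119-96223738, plus strand) had 2.59, 6.75 and 5.55 CPM in IP and 11.4, 10.1 and 13.4 CPM in unbound libraries (log2 fold change -1.23 ± 0.33, 2.35-fold lower, edgeR adjusted p = 0.0154). IP replicate 1 was the lowest, and without it the log2 fold change was -0.91 (edgeR adjusted p = 0.0239). Hist1h2be (chr13:23583670-23621124, minus strand) had 3.18, 2.60 and 2.80 CPM in IP and 6.41, 5.78 and 5.32 CPM in unbound libraries (2.04-fold lower, edgeR adjusted p = 0.00761). Of the 4446 exon bases of Hist1h2be in GENCODE M21, 496 are shared with Hist1h1e or Gm11398 on the same strand. The groups do not overlap in any of the 3 genes Hist1h2bc, Hist2h2be and Hist1h2be. Together they came to 8.93 ± 2.05 CPM in IP and 34.1 ± 3.02 CPM in unbound libraries.

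The other called H2B genes went the opposite way. Hist3h2ba (chr11:58948920-58949533, plus strand), the leading H2B gene in IP, stood at 17.1, 14.5 and 16.6 CPM in IP and 7.32, 4.27 and 6.47 CPM in unbound libraries (2.66-fold, edgeR adjusted p = 0.0016). Hist2h2bb had 8.01, 4.14 and 4.87 CPM in IP and 2.68, 1.34 and 1.51 CPM in unbound libraries (3.07-fold, edgeR adjusted p = 0.00855). All 381 of its exon bases are shared with predicted genes, Gm42743 on the same strand and Gm20628 on the opposite strand, and 0% of its 50-base windows are unique among annotated transcripts, so its counts are uncertain. Hist1h2bb had 2.76, 3.34 and 3.09 CPM in IP and 0.827, 0.843 and 0.671 CPM in unbound libraries (3.91-fold, edgeR adjusted p = 0.00205). In these 3 genes, too, the groups were fully apart.

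Hist1h2bf had 2.33, 2.54 and 2.51 CPM in IP and 1.05, 0.668 and 0.623 CPM in unbound libraries (3.14-fold, edgeR adjusted p = 0.0078). Hist1h2bg had 2.47, 3.12 and 2.11 CPM in IP and 1.13, 0.872 and 0.647 CPM in unbound libraries (2.90-fold, edgeR adjusted p = 0.0113), a call lost with neuron marker scaling (adjusted p = 0.0679), in lane 2 alone (0.115) and with the length trend removed (0.0626). The lower-level genes Hist1h2bj (0.594, 1.25 and 1.18 CPM in IP, 0.251, 0.232 and 0.384 CPM in unbound libraries) and Hist1h2bk (0.475, 0.643 and 0.600 CPM in IP, 0.200, 0.145 and 0.240 CPM in unbound libraries) rose with edgeR adjusted p-values of 0.0259 and 0.0486. Neither call was firm: Hist1h2bk passed in 1 of 18 alternative settings and lost its call without any 1 library (adjusted p from 0.0711 to 0.167), while Hist1h2bj lost its call without IP replicate 2 or 3 or unbound replicate 1 or 2 (0.0627 to 0.0963). In all, Hist1h2bj lost its call in 8 of 18 settings, among them neuron marker scaling (0.0735) and lane 2 alone (0.194). Hist1h2bk had 20, 20 and 27 reads in IP and 8, 5 and 10 in unbound libraries, and passed the filter through IP. Hist3h2bb-ps, annotated as a processed pseudogene of H2B, had 0.689, 0.867 and 0.644 CPM in IP and 0.251, 0.116 and 0.120 CPM in unbound libraries (4.42-fold, edgeR adjusted p = 0.0157). It, too, passed the filter through IP, with 29, 27 and 29 reads there and 10, 4 and 5 in unbound libraries. Without IP replicate 2 or unbound replicate 2 the adjusted p was 0.051 or 0.0705, and in lane 2 alone it was 0.135. Hist1h2bl, Hist1h2bm and Hist1h2bn did not pass, with log2 fold changes of 0.30, 0.56 and 0.37.

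The 8 H2B genes that rose summed to 32.1 ± 2.07 CPM in IP and 11 ± 2.62 CPM in unbound libraries, so the same genes made up the H2B totals of the groups in different proportions. Hist1h2bc alone supplied 2.23, 3.27 and 2.04% of the H2B level in IP libraries and 31.4, 36.8 and 37.6% in unbound libraries.

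**Figure D3:**
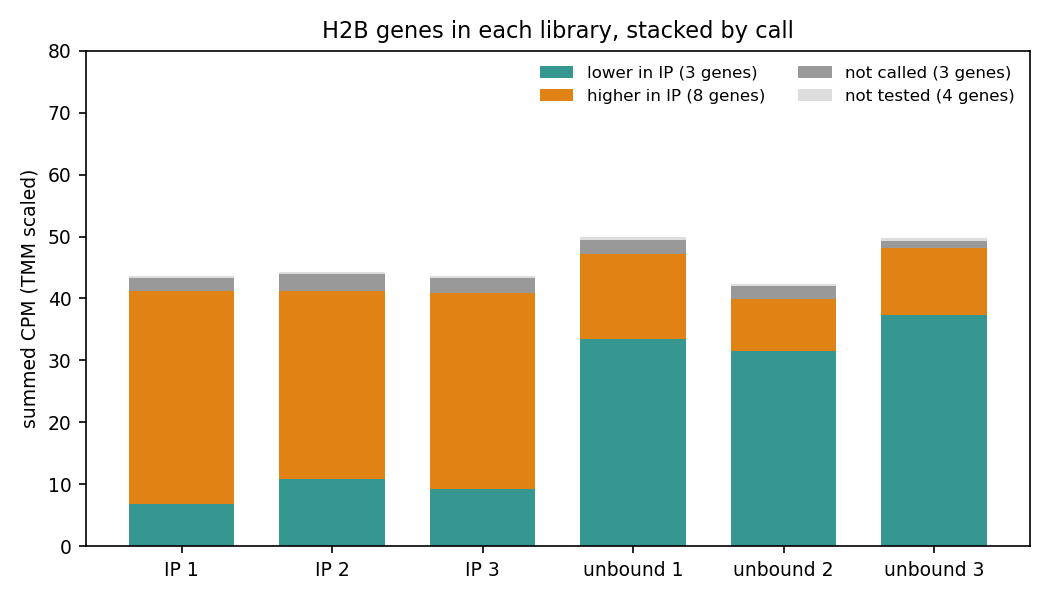
Summed CPM of the H2B genes in each library, stacked by their call in the test, with the genes lower in IP at the bottom and those higher in IP above them. The 3 genes lower in IP fill 6.74 to 10.8 CPM of the IP bars and 31.5 to 37.4 CPM of the unbound bars, while the totals stay between 42.4 and 49.9 CPM.

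H3 forms a tetramer with H4 at the nucleosome's core, and its replication-dependent genes were counted at low levels. Hist1h3e rose, with 3.35, 2.57 and 2.36 CPM in IP and 1.2, 0.988 and 0.551 CPM in unbound libraries (3.02-fold, edgeR adjusted p = 0.0123). Hist1h3f had 1.14, 1.22 and 1.07 CPM in IP and 0.576, 0.232 and 0.048 CPM in unbound libraries and missed the threshold (edgeR adjusted p = 0.0534). Every IP library of both genes lay above every unbound one. With unbound replicate 1 left out, Hist1h3f passed, at a log2 fold change of 3.05 in place of 1.99 (edgeR adjusted p = 0.0236). Hist2h3b, whose exon bases all overlap a predicted gene on the opposite strand, had 0.974, 1.09 and 1.0 CPM in IP and 0.376, 0.610 and 0.216 CPM in unbound libraries (edgeR adjusted p = 0.0646). Hist1h3i did not pass either.

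Most of the H4 level belonged to Hist1h4d (chr13:23581598-23582735, plus strand, a single exon). Hist1h4d stood at 181, 146 and 148 CPM in IP libraries and 77.6, 71.0 and 43.0 CPM in unbound libraries. Every IP library lay above every unbound one, with unbound replicate 3 the lowest (2.48-fold, log2 fold change 1.31 ± 0.22, edgeR adjusted p = 0.00192). It made up 84.3 to 85.5% of the H4 level in IP and 86.4 to 89.8% in unbound libraries. Per kilobase of annotated transcript it was also the highest histone gene in both groups, at 139 CPM per kb in IP and 56.2 CPM per kb in unbound libraries. Hist1h1e followed, with 29.4 CPM per kb in IP and 15 CPM per kb in unbound libraries. The next gene by this measure differed between the groups, being Hist3h2ba in IP at 26.2 CPM per kb and Hist1h2bc in unbound libraries at 14.4 CPM per kb.

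Among the other H4 genes, the single Hist4 gene had the highest fold change of the 38: Hist4h4 (chr6:136801553-136804415, minus strand) stood at 0.903, 0.675 and 1.13 CPM in IP and 0.150, 0.0872 and 0.120 CPM in unbound libraries (log2 fold change 2.89 ± 0.57, 7.39-fold, edgeR adjusted p = 0.00374). Its counts were low, at 38, 21 and 51 reads in IP and 6, 3 and 5 reads in unbound libraries. It passed the filter on low counts through its IP libraries, so the size of its fold change is uncertain. Hist2h4 (chr3:96261682-96263311, minus strand) had 9.60, 9.61 and 8.09 CPM in IP and 2.18, 1.63 and 1.41 CPM in unbound libraries (log2 fold change 2.38 ± 0.25, 5.22-fold, edgeR adjusted p = 0.000286). Hist1h4c had 11.5, 9.64 and 9.75 CPM in IP and 4.38, 2.70 and 2.33 CPM in unbound libraries (3.28-fold, edgeR adjusted p = 0.00155). None of these overlapped between groups. Hist1h4a had 3.99, 2.41 and 2.02 CPM in IP and 0.927, 0.639 and 0.264 CPM in unbound libraries (4.60-fold, edgeR adjusted p = 0.00919). Hist1h4h had 2.57, 2.06 and 1.42 CPM in IP and 0.727, 0.261 and 1.10 CPM in unbound libraries (2.86-fold, edgeR adjusted p = 0.0494). The call was lost with replicate number as a block (log2 fold change 1.65, adjusted p = 0.0635) and without IP replicate 1 or 2 or unbound replicate 1 or 2 (0.0913 to 0.145). In all it was lost in 12 of 19 alternative settings, other scalings among them, with an adjusted p of up to 0.205.

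Hist1h4k was the H4 gene that fell, with 0.641, 0.418 and 0.400 CPM in IP and 1.90, 1.89 and 0.599 CPM in unbound libraries (2.99-fold lower, edgeR adjusted p = 0.0489). Its groups overlap, since unbound replicate 3 lay below IP replicate 1. The call was lost with the replicate block (log2 fold change -1.45, adjusted p = 0.0696) and without any single library other than unbound replicate 3 (0.0721 to 0.171). Without unbound replicate 3 the adjusted p was 0.00834. In all the call was lost in 9 of 18 alternative settings, among them limma-voom, no filter on low counts and lane 2 alone. Hist1h2bk also lost its call with the block (adjusted p = 0.0945), and Hist1h3f gained one (0.0479). Hist1h4f and Hist1h4j did not pass, with log2 fold changes of 1.37 and 1.05. Without unbound replicate 1, Hist1h4f passed at a log2 fold change of 2.15 (edgeR adjusted p = 0.0488). Hist1h4i stayed at or below 0.601 CPM in every library and did not pass.

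**Figure D4:**
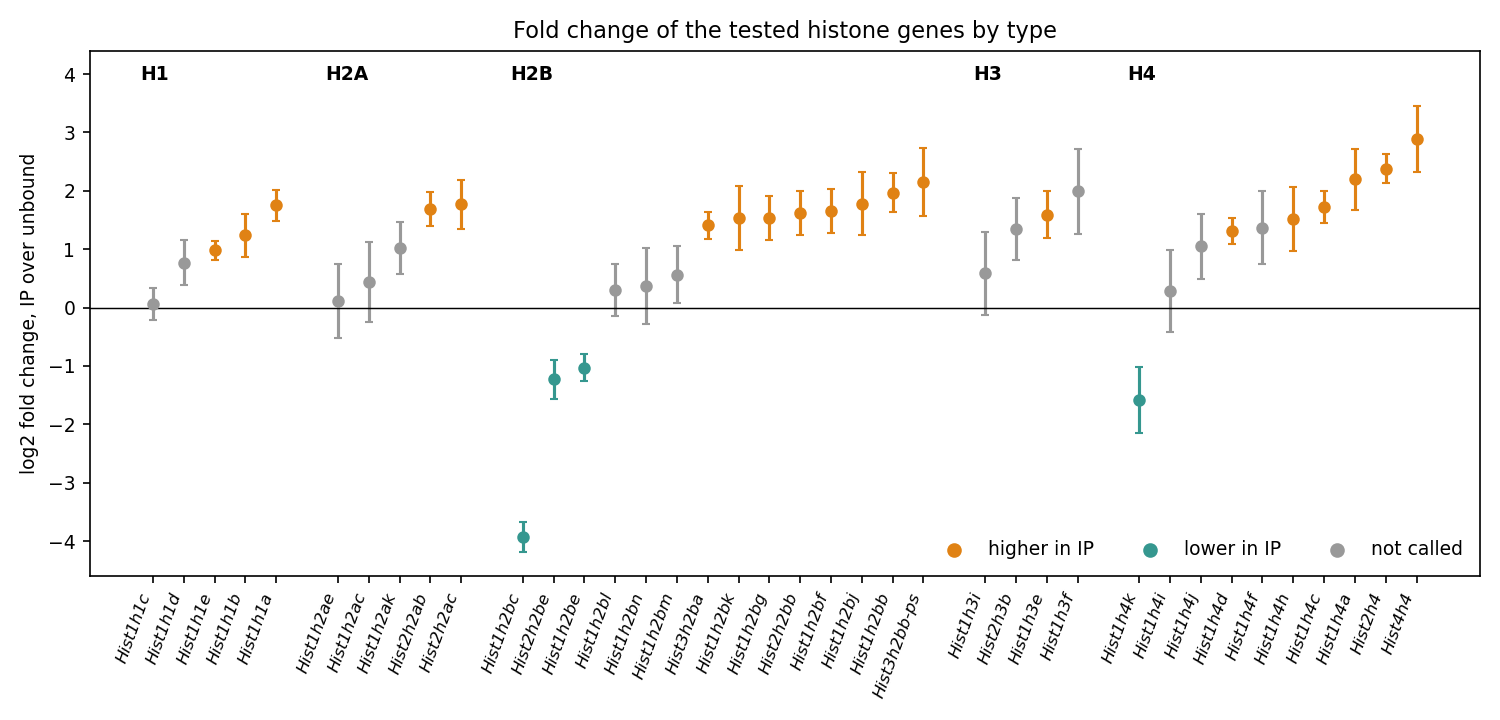
Log2 fold change, IP over unbound, of the 38 tested histone genes by type, with error bars of 1 SE; colour gives the call at an adjusted p under 0.05. Of the genes below 0, 3 are of the H2B type (-3.93 to -1.03) and 1 of the H4 type (-1.58).

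Many of these genes stand head to head, with starts less than 1000 bases apart on opposite strands; 12 such pairs were found among the 63 genes, all of an H2A with an H2B gene or pseudogene except Hist1h2bh with Hist1h3f. In 4 of them both genes were tested. Among these, Hist2h2ac and Hist2h2be, whose starts lie 238 bases apart on chromosome 3, were the pair in which both genes passed: Hist2h2ac averaged 2.38 CPM in IP and 0.699 CPM in unbound libraries and rose, while Hist2h2be averaged 4.96 CPM in IP and 11.6 CPM in unbound libraries and fell. Hist1h2bc, the gene with the deepest fall, faces Hist1h2ac at 250 bases, which averaged 0.352 CPM in IP and 0.262 CPM in unbound libraries and did not pass. Hist1h2bg rose beside Hist1h2ae at 175 bases, which did not pass, and neither Hist1h2ak nor Hist1h2bn, 295 bases apart, passed.

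The Hist2h2ac promoter holds the whole stretch between the starts of that pair. It is shown with the promoter of Hist1h4d, the most abundant member, as RefSeq gives them on GRCm38.p6, from 250 bases before to 50 bases after the start. Capitals mark TATAAA, the TATA box, and CCAAT, a box that many histone promoters carry, on either strand (ATTGG is CCAAT read on the other strand). The Hist1h4d promoter lies at chr13:23581318-23581617 on the plus strand and the Hist2h2ac promoter at chr3:96220831-96221130 on the minus strand.
Hist1h4d: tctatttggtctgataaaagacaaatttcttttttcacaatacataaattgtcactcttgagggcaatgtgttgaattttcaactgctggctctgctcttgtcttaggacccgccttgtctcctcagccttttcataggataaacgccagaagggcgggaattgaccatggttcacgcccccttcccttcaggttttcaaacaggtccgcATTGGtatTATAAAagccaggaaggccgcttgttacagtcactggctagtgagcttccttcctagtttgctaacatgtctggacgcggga
Hist2h2ac: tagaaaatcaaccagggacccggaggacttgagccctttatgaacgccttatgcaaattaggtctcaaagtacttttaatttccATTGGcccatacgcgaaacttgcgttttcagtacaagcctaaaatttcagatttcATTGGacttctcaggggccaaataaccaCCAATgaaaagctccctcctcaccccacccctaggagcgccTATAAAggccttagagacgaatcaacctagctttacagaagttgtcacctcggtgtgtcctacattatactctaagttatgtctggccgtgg
Searched on both strands, TATAAA was found in 33 of the 57 histone genes with a RefSeq promoter (57.9%) and in 15.6% of the 26968 other genes with promoters. CCAAT was found in 48 of the 57 (84.2%) and in 41.0% of the other genes. Promoters of head-to-head genes overlap, so the same site can be counted for both genes. The TATAAA of Hist1h2ad, for example, is also counted for Hist1h2bf, where it lies on the other strand. The 2 motifs do not overlap in the promoters shown. These are matches of letters, not measured binding sites.

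Annotated transcripts were compared between the genes that fell and those that rose. Among the 38 tested genes, Hist1h2bc and Hist1h2be were the 2 whose longest annotated transcript has 2 exons, and both fell; the other 36 have a single exon. The 20 genes that rose had longest transcripts of 381 to 2863 bases, with a median of 576, and the 4 that fell had 1156 (Hist1h2bc), 2506 (Hist1h2be), 2620 (Hist2h2be) and 312 bases (Hist1h4k). Of the 25 tested genes with the stem-loop motif, 15 rose and 1, Hist1h2be, fell; of the 13 without it, 5 rose and 3 fell. These stand beside 21.1% higher and 23.2% lower over all genes tested. The summed level of the 42 genes with the motif was 290 ± 29.6 CPM in IP and 128 ± 18.3 CPM in unbound libraries, and that of the 21 without it was 31.9 ± 3.75 CPM in IP and 39.1 ± 2.73 CPM in unbound libraries. Of that last sum, Hist1h2bc and Hist2h2be alone averaged 16.7 and 11.6 CPM in unbound libraries, against 1.1 and 4.96 CPM in IP. The 5 genes without the motif that rose are in the same sum. The motif was sought only in transcripts as annotated, some of them short (381 bases in Hist2h2bb). A poly(A) signal lay near the end of the longest transcript in 5 of the 20 genes that rose. It did so in 2 of the 4 that fell, Hist1h2be and Hist2h2be. Long transcripts also occurred among the genes that rose, such as Hist2h4 with 1630 bases and Hist4h4 with 2863. With so few genes that fell, these counts are a description.

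**Figure D5:**
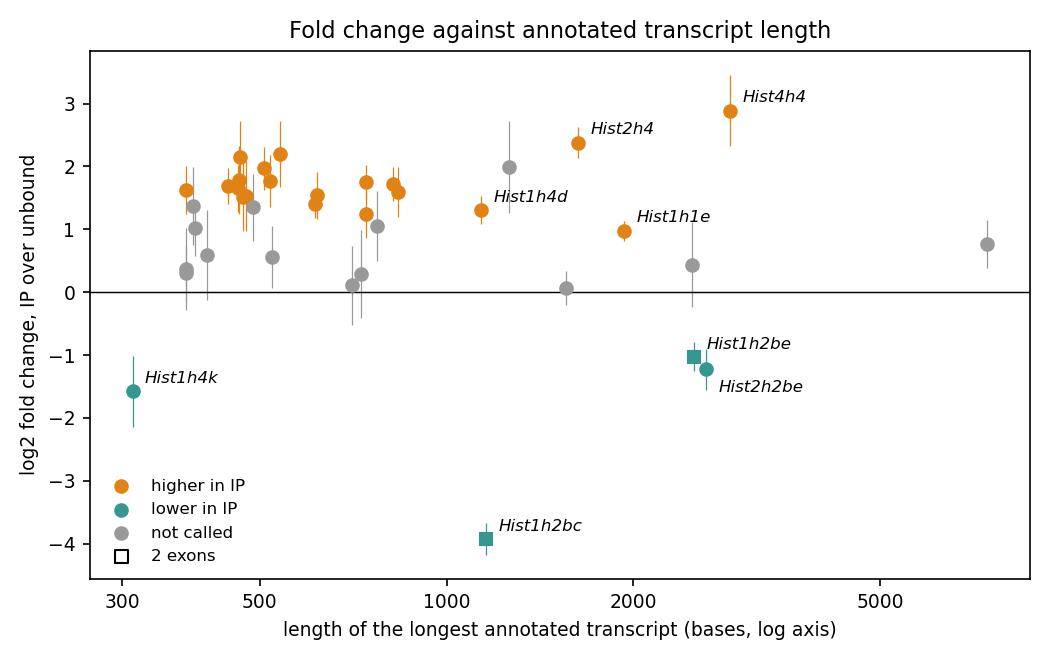
Log2 fold change, IP over unbound, of the 38 tested histone genes against the length of the longest transcript in GENCODE M21 (log axis), with error bars of 1 SE; squares mark 2 exons and colour gives the call. Both squares, Hist1h2bc at 1156 bases and Hist1h2be at 2506 bases, lie below 0, beside single-exon genes of like length that lie above it.

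Near-identical copies make many of these genes hard to count, since reads that fit several places were left out. By 50-base windows of the annotated transcripts, the unique share ranged from 0 to 100% over the 63 genes, with a median of 50.5%. A window also counted as not unique where another gene is annotated over the same bases. This share therefore mixes copies elsewhere with overlapping annotation. The sources used here give no read length. Among the 25 tested genes with at least 50% unique windows, 13 rose and 3 fell, and their summed level was 295 ± 28.2 CPM in IP and 155 ± 15.6 CPM in unbound libraries. Of the 13 tested genes with a lower unique share, 7 rose and 1 fell. Among the 29 tested genes that share no exon base with another gene, 16 rose and 3 fell. Of the 9 that do share exon bases, 4 rose and 1 fell. All these counts stand beside 21.1% higher and 23.2% lower over all genes tested.

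Proteins that make and handle histone mRNA were read from the same fit. Of 15 factors of histone mRNA 3′-end formation and turnover, all tested, 5 rose and 2 fell (median log2 fold change 0.07). Over all genes tested, 21.1% rose and 23.2% fell. Slbp, which encodes the stem-loop binding protein, rose, with 39.7, 46.4 and 45.6 CPM in IP and 16.8, 16.6 and 26.0 CPM in unbound libraries (2.22-fold, edgeR adjusted p = 0.00214). All IP libraries were above all unbound ones. Ncbp2, a cap-binding protein subunit, and Mblac1, which in human cells cuts histone pre-mRNA, rose 1.52-fold and 1.68-fold; without unbound replicate 1 the adjusted p of Mblac1 was 0.0565. Mif4gd, known from human cells as a partner of SLBP in translation, fell, with 3.55 ± 0.261 CPM in IP and 8.20 ± 1.78 CPM in unbound libraries (edgeR adjusted p = 0.00361). Npat, the transcriptional coactivator of these genes at S phase, fell with 38.2 ± 3.18 CPM in IP and 52.8 ± 6.78 CPM in unbound libraries (edgeR adjusted p = 0.0283); without IP replicate 2 or 3, or unbound replicate 2 or 3, its adjusted p was 0.0565 to 0.102.

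Of 13 replication-independent histone variant genes, 11 were tested, 6 rose and 1 fell (median log2 fold change 0.72). Over all genes tested, 21.1% rose and 23.2% fell. H2afy (macroH2A1), H2afz (H2A.Z), H2afx (H2A.X) and H3f3b (H3.3) rose 2.01-, 2.26-, 1.84- and 1.73-fold, with H3f3b averaging 135 ± 13.1 CPM in IP libraries and 77.7 ± 5.44 CPM in unbound libraries. Cenpa, the centromeric H3, fell with 0.428, 0.514 and 0.200 CPM in IP and 2.15, 2.09 and 0.623 CPM in unbound libraries (edgeR adjusted p = 0.0244). That call was lost without IP replicate 1 or 3 or unbound replicate 1 or 2 (0.0637 to 0.0924). Of 20 histone chaperone genes, 19 were tested, 3 rose and 2 fell (median -0.03), beside the same shares over all genes. Daxx, an H3.3 chaperone, Nap1l4, a nucleosome assembly protein, and Rbbp4, a histone-binding subunit of several complexes, rose 1.83-, 1.66- and 1.52-fold. Nasp, an H3-H4 chaperone, and Mms22l, which acts at damaged forks, fell with edgeR adjusted p-values of 0.0284 and 0.0469; both calls were lost without any 1 IP library or without unbound replicate 2, Nasp's also without unbound replicate 1 (0.067 to 0.0938) and that of Mms22l also without unbound replicate 3 (0.075 to 0.157). With the replicate block Mms22l did not pass (log2 fold change -1.33, adjusted p = 0.0735).

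Of 25 genes of S phase and mitosis, 22 were tested, 0 rose and 7 fell (median log2 fold change -0.64). Over all genes tested, 21.1% rose and 23.2% fell. By edgeR 1 of the 22 was higher in IP at an unadjusted p under 0.05. DESeq2 and limma-voom called 0 of these genes higher, and 1 was called higher without unbound replicate 3. E2f1, a transcription factor of S-phase entry, had 2.35, 2.22 and 1.29 CPM in IP and 5.96, 9.82 and 5.61 CPM in unbound libraries (3.65-fold lower, edgeR adjusted p = 0.00274). Mki67, the proliferation marker Ki-67, had 0.404, 0.546 and 1.24 CPM in IP and 3.71, 3.66 and 1.77 CPM in unbound libraries (log2 fold change -2.04, edgeR adjusted p = 0.0126). With a library left out its log2 fold change was -2.67 to -1.73, the lowest without IP replicate 3. In lane 2 alone its call was lost (edgeR adjusted p = 0.129). Ccna2, cyclin A2, fell with 0.730 ± 0.208 CPM in IP and 2.24 ± 0.464 CPM in unbound libraries (edgeR adjusted p = 0.012), a call lost without unbound replicate 1 (0.0522) and in lane 2 alone (0.123). Aurkb, a mitotic kinase, had 0 to 0.0321 CPM in IP, where a single read was counted, and 0.360 to 0.526 CPM in unbound libraries (edgeR adjusted p = 0.00335).

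Cell type markers moved between the same libraries, where 21.1% of all genes tested were higher in IP and 23.2% lower. Of 15 neuronal markers 9 were higher in IP and 1 lower, with summed levels of 19400 to 20700 CPM in IP and 13200 to 14600 CPM in unbound libraries. All 10 astrocyte markers were lower in IP (sums of 151 to 352 CPM in IP, 1490 to 1830 CPM in unbound libraries), and so were all 10 oligodendrocyte markers (341 to 571 CPM in IP, 3650 to 7020 CPM in unbound libraries). Of 8 oligodendrocyte precursor markers, 7 were lower (sums of 23.9 to 50.2 CPM in IP and 245 to 397 CPM in unbound libraries), as were all 10 microglial markers (5.62 to 16.7 CPM in IP, 72.5 to 111 CPM in unbound libraries). Of the vascular markers 7 of 9 tested were lower (4.22 to 9.9 CPM in IP, 29.1 to 67.3 CPM in unbound libraries), and of the ependymal and tanycyte markers all 7 tested (10.4 to 16.3 CPM in IP, 88.9 to 99.4 CPM in unbound libraries). The part of cell makeup in the histone results was not tested. Scaled to the neuronal markers instead of all genes, which lowers the median log2 fold change of all genes by 0.53, 13 histone genes were called higher and the 4 remained called lower. The whole fit of 16991 genes then had 852 higher and 7194 lower, and the counts under this scaling are to be read beside those. Under the same scaling, 2 variant genes were higher and 3 lower, 1 of the 3′-end factors was higher and 8 lower, 0 chaperones were higher and 12 lower, and 14 genes of S phase and mitosis were lower.

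Of the 20 genes that rose, 10 were called in every alternative in which they were tested: Hist1h1a, Hist1h1e, Hist1h2bb, Hist1h4c, Hist1h4d, Hist2h2ab, Hist2h2ac, Hist2h4, Hist3h2ba and Hist4h4. Among these, Hist4h4 had 6, 3 and 5 reads in unbound libraries and was tested in 18 alternatives. Of the 4 that fell, Hist1h2bc and Hist2h2be were. In libraries of sequencing lane 2 alone, with 2 a group, 11 histone genes were called higher and 2 lower. The calls of Hist1h2be, Hist1h2bf, Hist1h3e and Hist1h4a were lost there (edgeR adjusted p from 0.0671 to 0.0872), and those of Hist1h3e and Hist2h2bb with neuron marker scaling (0.0744 and 0.0559).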

How the data were processed

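RNA-seq libraries were made from the hypothalamus of the line Lhx5-TRAP DT154, with 3 immunopurified and 3 unbound libraries grouped by the sample type label. The files hold unnormalised read counts, a value per gene symbol, made by the authors with STAR 2.0.0e on mm10 and HTSeq, per the submitters' processing notes. Annotation, strand setting, overlap handling and RNA selection are not stated in those notes or in the labels. Totals and tests used gene entries alone, leaving out 5 summary lines and a line named unknown, which held 0 to 2 reads a library; the report gives the shares of the reads that the summary lines hold. The test was that of edgeR 4.0.16 under R 4.3.3 (TMM scaling, filterByExpr at its defaults of 10 reads and a total of 15, a quasi-likelihood fit, robust, with group as the sole term, Benjamini-Hochberg adjustment over 16991 genes, threshold 0.05). Each standard error is the ratio of the log2 fold change to the root of its F statistic. CPM values are scaled by TMM over all gene entries.

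Depth was 32471045 to 46293837 gene counts per library. Replicates of a group differed by more than counting noise, so each counted as 1 sample. IP and unbound libraries carry the same replicate numbers, and replicate 2 of each was sequenced in lane 4 and the rest in lane 2, per the labels. Lane therefore cannot be told apart from replicate 2. The correlation between the deviations of same-numbered libraries was 0.139, 0.164 and 0.206. The highest with another number was -0.00498, 0.0435 and -0.148 for IP replicates 1 to 3. Deviations are from the group mean, so a high value for the same number lowers the others. The numbers were taken as pairs only in an alternative fit with replicate number as a block. The main fit and its p-values do not use them.

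Gene positions, exons and transcripts came from GENCODE M21, to which all 63 histone genes were matched by symbol, and promoters from RefSeq, with 57 matched. The histone genes and the lists were chosen with earlier results of these data known. Histone genes with a mean of at least 0.5 CPM in a group, up to 30 by mean level, and all called ones are described one by one; of each related list, up to 4 called genes with the smallest adjusted p and those called the other way are named. Pomc, Agrp, Hdc, Ttr and Ppp1r1b were named after their values were seen. Alternatives were other scalings, filters and tools (DESeq2 1.42.0, limma-voom with limma 3.58.1), the block, lane 2 alone, GC and length trends removed, each library left out, and 3 added after seeing the data (the sum without Hist1h4d, genes with at least 50% unique windows, genes with no shared exon). The script was tested on simulated data.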

Additional observations from a re-analysis of the deposited data

How the results depend on the processing

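Of 705 values of single histone genes under the alternatives, 610 kept direction and side of the threshold, 66 lost the call, 8 gained one and 21 changed sign, all of the last in genes that were not called. Of 451 values for called genes, 0 changed sign. Counts of histone genes called higher or lower stayed within 1.5 times the 20 and 4 reported with each library left out, but not with neuron marker scaling (13 higher), in lane 2 alone (11 higher and 2 lower) or among genes with at least 50% unique windows (13 higher, over fewer genes). With the replicate block 18 of the 20 and 3 of the 4 kept their calls; apart from Hist1h2bk, Hist1h4h, Hist1h4k and Hist1h3f, it changed no call of a histone gene; of the related genes named, Mms22l lost its call (adjusted p = 0.0735). The log2 ratio of the summed levels, 0.95, was 0.42 with neuron marker scaling and 0.67 without Hist1h4d. Over all genes, neuron marker scaling gave 852 higher and 7194 lower and lane 2 alone 1297 higher and 2538 lower, against 3586 and 3943. The cause of these shifts was not tested.

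Sign changes were in Hist1h1c (-0.04 with library size alone, -0.47 with neuron marker scaling, -0.03 with the GC trend removed, -0.07 with that and the block, -0.21 with the length trend removed, -0.22 without IP replicate 1), Hist1h2ac (-0.11 with neuron marker scaling), Hist1h2ae (-0.39 with neuron marker scaling, -0.36 with the length trend removed, -0.11 to 0.23 with a library left out), Hist1h2bl (-0.24 and -0.27 with the same scaling and trend), Hist1h2bn (-0.17 and -0.12 with these, -0.39 in lane 2 alone, -0.19 to 0.71 with a library left out) and Hist1h4i (-0.25 and -0.18 with these, -0.11 to 1.10 with a library left out). For Hist1h1c, leaving out a library gave -0.22 to 0.29.

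Of the related lists, neuron marker scaling gave variants 2 higher and 3 lower, 3′-end factors 1 and 8, chaperones 0 and 12, and cell-cycle genes 14 lower. Across the 16991 genes that scaling gave 852 higher and 7194 lower. Lane 2 alone gave variants 0 lower, 3′-end factors 1 higher and 1 lower, chaperones 1 higher and 0 lower, and cell-cycle genes 3 lower. Among 3′-end factors, library size alone gave 3 higher, the length trend removed 3 higher and 1 lower, and the GC trend removed, with or without the block, 1 lower. Of chaperones, 0 were lower with no filter on low counts and with the GC trend removed, with or without the block, and 1 with a minimum count of 50, limma-voom, the block and the length trend removed. The minimum count of 50 left 0 variants lower. With a library left out, variants had 0 to 1 lower, 3′-end factors 2 to 5 higher and 1 to 2 lower, chaperones 0 to 2 lower, and cell-cycle genes 0 to 1 higher. GC content and length were known for 15438 tested genes (90.9%). The 25 untested histone genes reached at most 35 reads in a library; their median share of unique 50-base windows was 24.1%, against 59.8%, 75.8% and 56.5% in genes called higher, called lower and not called, and the part of depth and of shared sequence was not tested.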
